A study of Mus musculus with 6 samples.

Results

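Complement genes transcribed by arthritic synovial fibroblasts (SFs) were examined for a response to amisulpride, a drug given against psychosis and a known dopamine receptor antagonist. The 8 genes described here, C1ra, C2, C3, C4b, Cfb, Cfd, Serping1 and Cd55, are locally made components and inhibitors, and were found by name among the 49548 genes of the table. Each name occurred once, and 7 of the 8 genes passed the filter on low values, which asked for a normalised count of 10 or more in 3 or more of the 6 libraries. The mice were of the CBA C57BL/6J background, 8 weeks old, and carried a human TNF transgene (hTNFtg) that causes arthritis, which both groups therefore share. The cells were taken from their ankle joints. The cultures were depleted of CD45+ leukocytes at passage 1. One group of 3 libraries received 500 μM amisulpride for 48 hours, and the other group of 3 libraries is labelled as having received no treatment. The study's methods call the controls vehicle-treated, whereas the labels do not mention a vehicle. Wild-type cells were not analysed here. The study describes the 3 libraries of a group as biological replicates.

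Complement is a cascade of plasma proteins that cells of the joint can also make. In the classical pathway C1q binds a target and activates the proteases C1r and C1s, which cleave C4 and C2 to form a convertase that cleaves C3. In the alternative pathway factor B, cleaved by factor D, forms a convertase with C3 fragments. Among the inhibitors, C1 inhibitor inactivates C1r and C1s, and CD55 takes C3 convertases apart. Fibroblasts are known to produce several of these proteins, and inflammatory cytokines are known to induce C3 and factor B.

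Promoter sequences from RefSeq (build GRCm38.p6) matched 4 of the 8 genes, and 3 of them are shown because they belong to C3, on which all pathways converge, to C1ra, the initiating protease among the members, and to Cfd, which was listed at 0 in every library. Each runs 5′ to 3′ on the gene's strand, from 250 bases before the RefSeq start to 50 bases after it. Capitals mark matches on either strand to motifs written as TTGCNNAA (C/EBP), TTCNNNGAA (STAT, the GAS element), GGG and CC with any 5 bases between them (NF-kB), TTTC repeated after any 2 bases (the interferon-stimulated response element) and TATAAA (the TATA box). The windows are chr17:57228087-57228386 on the minus strand for C3, chr6:124512371-124512670 on the plus strand for C1ra and chr10:79890603-79890902 on the plus strand for Cfd.
C3: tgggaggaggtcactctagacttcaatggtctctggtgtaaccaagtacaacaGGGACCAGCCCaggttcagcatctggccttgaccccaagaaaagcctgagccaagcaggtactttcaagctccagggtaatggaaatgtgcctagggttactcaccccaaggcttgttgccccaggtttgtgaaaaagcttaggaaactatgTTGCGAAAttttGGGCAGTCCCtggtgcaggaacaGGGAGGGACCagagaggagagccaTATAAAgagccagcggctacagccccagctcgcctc
C1ra: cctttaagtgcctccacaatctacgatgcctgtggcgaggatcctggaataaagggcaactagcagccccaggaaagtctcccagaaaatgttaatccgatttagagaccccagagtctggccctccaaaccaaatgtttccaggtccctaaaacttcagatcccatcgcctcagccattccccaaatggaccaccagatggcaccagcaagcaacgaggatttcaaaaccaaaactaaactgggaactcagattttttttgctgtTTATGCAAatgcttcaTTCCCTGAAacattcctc
Cfd: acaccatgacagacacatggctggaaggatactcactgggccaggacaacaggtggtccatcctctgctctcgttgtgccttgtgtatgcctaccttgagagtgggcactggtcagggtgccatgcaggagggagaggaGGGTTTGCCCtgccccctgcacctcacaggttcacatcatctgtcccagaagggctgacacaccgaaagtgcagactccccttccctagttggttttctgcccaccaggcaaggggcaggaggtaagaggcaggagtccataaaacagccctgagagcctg
The C3 window held a C/EBP match beginning 45 bases before the start, 4 NF-kB matches, a pair of which overlap almost fully, and 1 TATA match after the start. The C1ra window held 1 C/EBP and 1 GAS match, both after the start, and the Cfd window held 1 NF-kB match. Over all 32851 promoter windows of this length, 10.8% held the C/EBP letters, 8.30% the GAS letters, 50.8% the loose NF-kB letters, 3.44% the interferon element and 13.6% the TATA letters. These matches describe letters only.

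Values are normalised counts, taken here to be read counts divided by 1 factor per library, which the study's methods do not state. The depth could be recovered for 5 libraries and was 2.52 to 4.71 M reads, approximately, with amisulpride replicate 3 the shallowest. A floor of 3 reads was worth 2.50 to 5.37 normalised counts in those libraries, and covers counting error only. Amisulpride replicate 3 also stood apart on the leading principal component of 12614 tested genes (37.1% of the variance), at 73.9 against -38.2 to 10.4 for the others. Values without it are therefore given where they change a call among the complement genes. All 12 fibroblast markers were detected and tested. Of 10 hepatocyte markers, which would mark the main source of plasma complement, 2 were tested and 5 were at 0 in all 6 libraries. The tested ones were Cyp2e1, at 84 to 161 normalised counts, and Serpina1a, at 23 to 51. Albumin (Alb) reached 2 in untreated replicate 2 and was at 0 elsewhere. Of 7 endothelial markers 1 was tested, Egfl7, with 66, 84 and 78 in untreated and 50, 59 and 25 in treated libraries. Cdh5 and Tie1 were at 0 in all 6.

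Of the 7 tested members, 5 were higher and 2 lower in treated SFs by their estimates, and 1, C2, rose past the study thresholds, which are a log2 fold change of 1 or more in size and an unadjusted p under 0.05. Over all genes tested 5.70% passed these thresholds, 2.69% by being higher and 3.01% by being lower. No member had an adjusted p under 0.05 in limma, where 0.285% of all genes did, and 1 member had an unadjusted p under 0.05, as did 10.9% of all genes, 5.11% with a higher estimate. The median log2 fold change of the tested members was 0.18, beside 0.0016 over all genes tested.

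**Figure D1:**
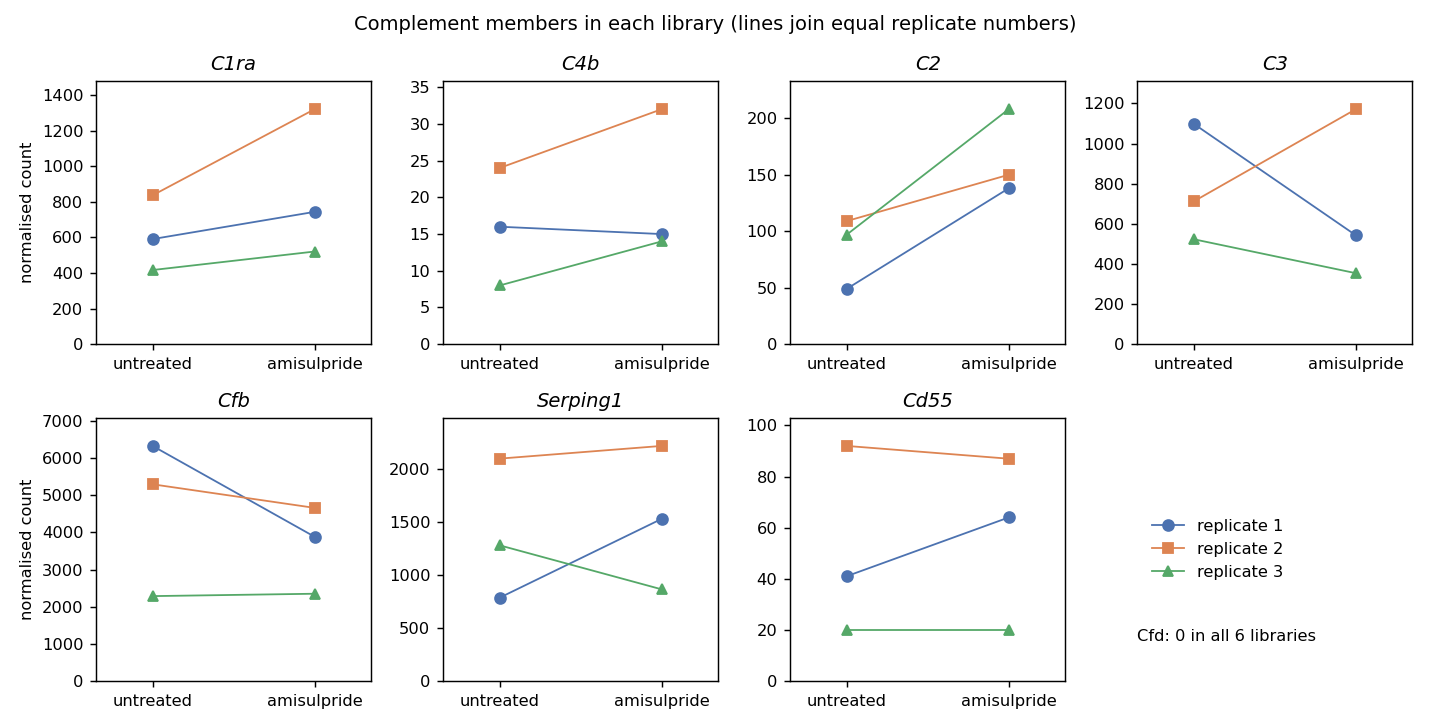
Normalised count (vertical axis, linear, from 0) of each tested member in the 3 untreated and 3 amisulpride libraries, with lines joining libraries of equal replicate number. In C2 alone the 3 treated points, 138 to 208, lie above all untreated points, 49 to 109, and Cfd was at 0 throughout.

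C2 (ENSMUSG00000024371, mm10 chromosome 17, 34862604 to 34898265, minus strand) encodes the protease zymogen that completes the classical C3 convertase. It had 49, 109 and 97 normalised counts in untreated replicates 1, 2 and 3 and 138, 150 and 208 in the treated ones. The groups did not overlap, which held for 16.5% of all genes tested, 7.80% with the treated group above and 8.66% with it below, and C2 was higher in each same-numbered pair. C2 rose 2.01-fold, or 1.01 ± 0.34 (SE) on the log2 scale, 95% interval 0.27 to 1.75. In limma its unadjusted p was 0.0122 and its adjusted p 0.273. The estimate sits at the edge of the study threshold, and it was 0.66 on the log2 scale without untreated replicate 1 and 0.83 without amisulpride replicate 3, so the call was lost without either of these libraries. With the replicate number as a block, its adjusted p was 0.0841.

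Cfb (ENSMUSG00000090231, chromosome 17, 34856374 to 34862518, minus strand) encodes factor B, the C2 counterpart in the alternative pathway, and lies 85 bases downstream of C2 on the same strand. Untreated libraries had 6329, 5296 and 2284 normalised counts and treated libraries 3884, 4661 and 2348. The groups overlapped, and replicate 3 was the lowest library in both. The log2 fold change was -0.28 ± 0.40 (SE), with a 95% interval of -1.16 to 0.60 and an adjusted p of 0.836 in limma. As folds the interval runs from 0.447 to 1.51. The neighbours C2 and Cfb therefore had estimates of opposite sign, but the difference between them was not tested.

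Other gene models overlap Cfb, and whether reads were counted to more than 1 of them was not tested. Gm20547 (chromosome 17, 34856412 to 34882042, minus strand) spans both Cfb and part of C2, and in the GENCODE M21 transcripts it holds 76.5% of the 31-base words in the last 500 bases of Cfb transcripts and 25.1% of those of C2. Its values were 2115, 1788 and 786 in untreated and 1315, 1514 and 798 in treated libraries, a ratio to Cfb of 0.325 to 0.344 in all 6. How the authors' counting assigned such reads is not given in the sources used here. The microRNA gene Mir6972, inside Cfb, ran from 64 to 306 normalised counts, had a Pearson r of 0.980 with Cfb over the 6 libraries and a log2 fold change of -0.40 ± 0.57 (SE). The levels of Cfb and C2 are uncertain for this overlap. C2 also overlaps Zbtb12 on the opposite strand, which had 11 to 47 normalised counts.

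**Figure D2:**
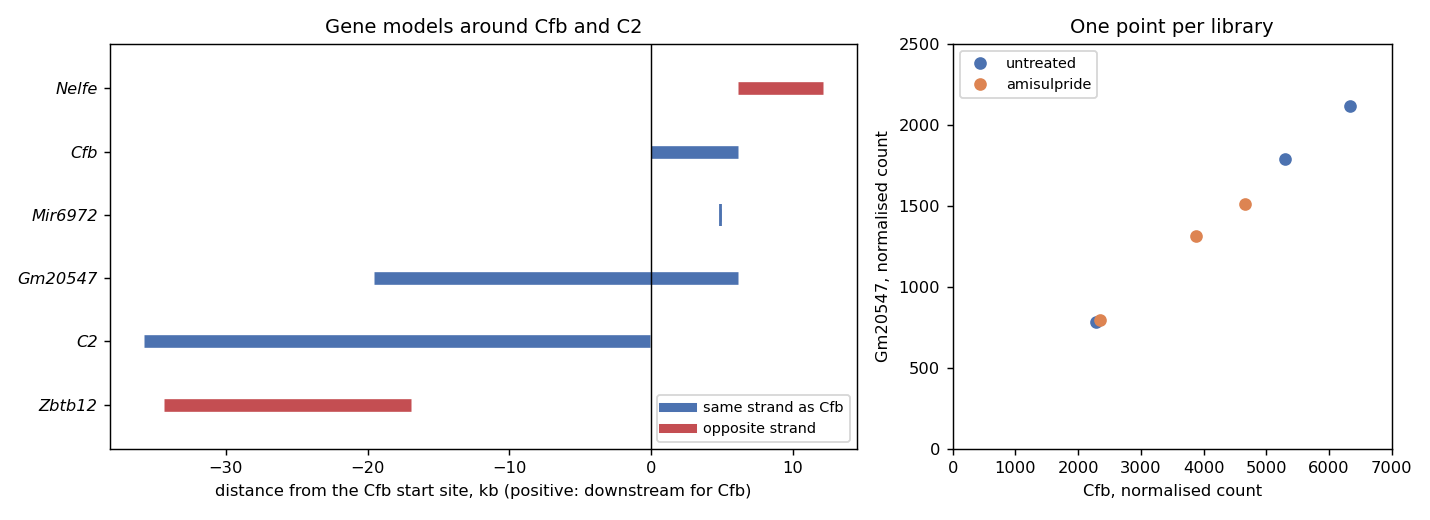
Left, gene models around Cfb and C2 as distance in kb from the Cfb start site, coloured by strand. Right, normalised counts of Gm20547 against Cfb, with 1 point per library, whose ratios ran from 0.325 to 0.344 in both groups.

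C3 (ENSMUSG00000024164, chromosome 17, 57203970 to 57228136, minus strand) encodes the central component, whose cleavage opens the later steps. Its values were 1098, 712 and 523 in untreated libraries and 543, 1171 and 354 in treated ones. The treated group held both the highest and the lowest of the 6 values, and C3 was higher in 1 of the 3 same-numbered pairs. The log2 fold change was -0.29 ± 0.41 (SE), with a 95% interval of -1.19 to 0.62 and an adjusted p of 0.838 in limma. Its transcript ends shared 0% of their words with other genes. The 3 protein-coding genes outside complement whose log2 values followed C3 best over the 6 libraries were Gstt2 (Pearson r 0.985), Pick1 (0.984) and Rwdd4a (0.980), the highest of 11010 genes compared, of which 97 had an r over 0.9.

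C4b (ENSMUSG00000073418, chromosome 17, 34728380 to 34743882, minus strand) encodes C4, which C1s cleaves. It was low, at 16, 24 and 8 normalised counts in untreated and 15, 32 and 14 in treated libraries, with overlapping groups. Its log2 fold change was 0.35 ± 0.52 (SE), a fold of 1.27 with a 95% interval of 0.574 to 2.83, and an adjusted p of 0.845 in limma. The near-identical copy C4a shared 38.0% of the words at the C4b transcript ends. C4a itself had 25, 22 and 3 normalised counts in untreated and 19, 16 and 0 in treated libraries. The ratio of C4a to C4b ran from 0 to 1.56, unlike the even ratio of Gm20547 to Cfb, and the split of reads between the 2 copies is uncertain.

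C1ra (ENSMUSG00000055172, chromosome 6, 124512405 to 124523443, plus strand) encodes C1r, the protease that activates C1s. It had 591, 837 and 417 normalised counts in untreated and 744, 1321 and 521 in treated libraries. The groups overlapped, yet the treated library was the higher in all 3 same-numbered pairs, by 0.33, 0.66 and 0.32 on the log2 scale. Over all genes tested 16.9% were higher in all 3 pairs. Its log2 fold change was 0.44 ± 0.36 (SE), with a 95% interval of -0.36 to 1.23 and an adjusted p of 0.709 in limma. The paralog C1rb, with 23.4% of the C1ra end words, had 406, 562 and 259 in untreated and 441, 774 and 265 in treated libraries, again higher in all 3 pairs, with a log2 fold change of 0.20 ± 0.39. C1s1, which encodes the partner protease C1s, had 332, 794 and 408 against 466, 1280 and 467, a log2 fold change of 0.46 ± 0.43 and an adjusted p in limma of 0.742. Its estimate was -0.03 without amisulpride replicate 2 and 0.83 without untreated replicate 2. Replicate 2 was the highest library of each group for C1ra, C1rb and C1s1. The Pearson r of C1ra with C1s1 over the 6 libraries was 0.872 and that with C1rb was 0.967, over libraries that share treatment and replicate numbers. It was 0.944 with C4b, 0.887 with Cd55 and 0.739 with Serping1, so a high r was not particular to the C1r and C1s genes.

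Cfd (ENSMUSG00000061780, chromosome 10, 79890853 to 79892656, plus strand) encodes factor D, also called adipsin, the protease that cleaves factor B and a known product of fat cells. It was listed at 0 in all 6 libraries and was not tested. In each of the 5 libraries of known depth a count of 0 allows up to 3 reads, at most 5.37 normalised counts. All 12 housekeeping genes checked had values above 0 in every library, which does not show how the 0 of Cfd arose. The adipocyte markers adiponectin (Adipoq), Cidec and leptin (Lep) were also at 0 in all 6 libraries. Of 8 adipocyte markers 2, Lpl and Fabp4, were tested, and these were well above 0. Fabp4 had 303, 309 and 324 normalised counts in untreated and 128, 187 and 229 in treated libraries. Lpl had 2149, 1138 and 761 against 972, 517 and 911. Pparg, which was not tested, had 5, 1 and 4 against 6, 11 and 23. Elane, the gene 2636 bases upstream of Cfd on the same strand, chosen after its values were seen, had 1057, 1543 and 1173 normalised counts in untreated and 875, 1610 and 1081 in treated libraries. These reads were counted to another gene, and their origin was not tested. Whether reads from Cfd could be mapped and counted was not tested either.

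Serping1 (ENSMUSG00000023224, chromosome 2, 84765387 to 84775444, minus strand) encodes C1 inhibitor, which inactivates C1r and C1s. Untreated libraries had 787, 2102 and 1282 normalised counts and treated libraries 1532, 2222 and 866. The pairs moved in different directions, by 0.96, 0.08 and -0.57 on the log2 scale. Its log2 fold change was 0.16 ± 0.40 (SE), with a 95% interval of -0.73 to 1.04 and an adjusted p of 0.914 in limma. None of its end words occurred in another gene.

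Cd55 (ENSMUSG00000026399, chromosome 1, 130439027 to 130462744, minus strand) encodes decay-accelerating factor, a membrane protein that takes C3 convertases apart and a known surface protein of lining fibroblasts. Its values were 41, 92 and 20 in untreated and 64, 87 and 20 in treated libraries. Replicate 2 was the highest and replicate 3 the lowest in both groups, and the range within the untreated group was 4.60-fold. The log2 fold change was 0.18 ± 0.60 (SE), a fold of 1.14 with a 95% interval of 0.456 to 2.83, and an adjusted p of 0.934 in limma. A change of 2-fold in either direction lies inside this interval. Its paralog Cd55b, with 14.5% of the Cd55 end words, was at 0 in all 6 libraries.

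The spread between replicates was wider for the members than for most genes of a similar level. The residual SD on the log2 scale was 1.08 for Cd55, larger than that of 97.8% of the 4677 tested genes whose mean lay within 2-fold of it. For C3 it was 0.72, larger than in 94.5% of 1557 such genes, and for Serping1 0.70, larger than in 92.5% of 853. C1ra (88.8%), Cfb (87.7%), C2 (74.3%) and C4b (66.7%) followed in that order. The replicate number ran through this spread, since replicate 3 was the lowest library of both groups for 5 of the 7 members (C1ra, C3, C4b, Cfb and Cd55), as it was for 13.4% of all genes tested. Replicate 2 was the highest of both groups for 4 of the 7 (C1ra, C4b, Serping1 and Cd55), against 11.3% of all genes. No test was made of these counts.

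**Figure D3:**
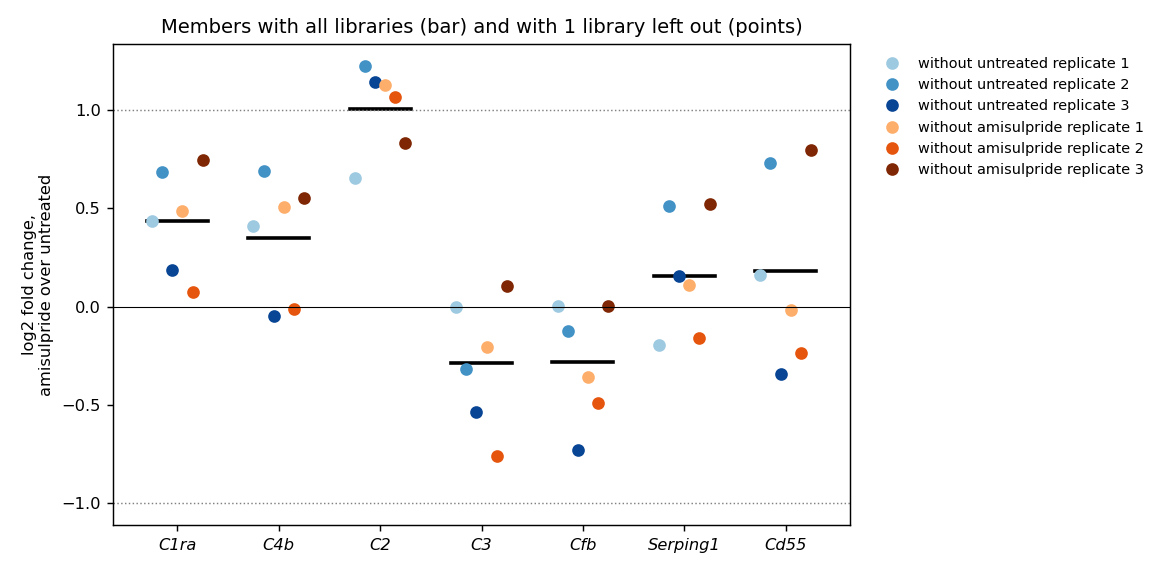
Log2 fold change of each tested member (amisulpride over untreated) with all 6 libraries, shown by the bar, and with each library left out in turn, shown by the points, with dotted lines at the study threshold of 1 and -1. C2 stays between 0.66 and 1.23 and C1ra between 0.08 and 0.75, whereas the points of the other 5 members fall on both sides of 0.

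Leaving out single libraries moved the estimates of most members across 0. C2 and C1ra kept their sign in every alternative, and C3, C4b, Cfb, Serping1 and Cd55 each had the opposite sign in at least 1. Cfb came to 0.0050 without untreated replicate 1 and 0.0029 without amisulpride replicate 3, and to -0.73 without untreated replicate 3. C3 ranged from -0.76 without amisulpride replicate 2 to 0.10 without amisulpride replicate 3. Serping1 came to -0.20 without untreated replicate 1 and 0.52 without amisulpride replicate 3. Cd55 came to -0.34 without untreated replicate 3 and 0.80 without amisulpride replicate 3, and C4b to -0.05 without untreated replicate 3.

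The rest of the pathway was described from a list of 56 complement genes found in the table, the 8 members included. Of these, 26 passed the filter, 14 with a higher and 12 with a lower estimate in treated SFs, and 17 were at 0 in all 6 libraries. C2 rose past the study thresholds (1 of 26 genes, beside 5.70% of all genes tested), no gene fell past them and none had an adjusted p under 0.05 in limma, while 2 had an unadjusted p under 0.05 (C2 and C1qc), beside 10.9% of all genes. The groups did not overlap for 2 of the 26 genes, C2 and C1qb, beside 16.5% of all genes. These named calls were all upward. Over all genes, the upward shares were 2.69% past the thresholds, 5.11% with an unadjusted p under 0.05 in limma and 7.80% without overlap. Of the 26, 7 were higher in all 3 same-numbered pairs and 3 lower, beside 16.9% and 17.8% of all genes. No test was made of these counts. The median log2 fold change was 0.11 over the 26 genes and -0.0097 over the 19 that are not members.

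**Figure D4:**
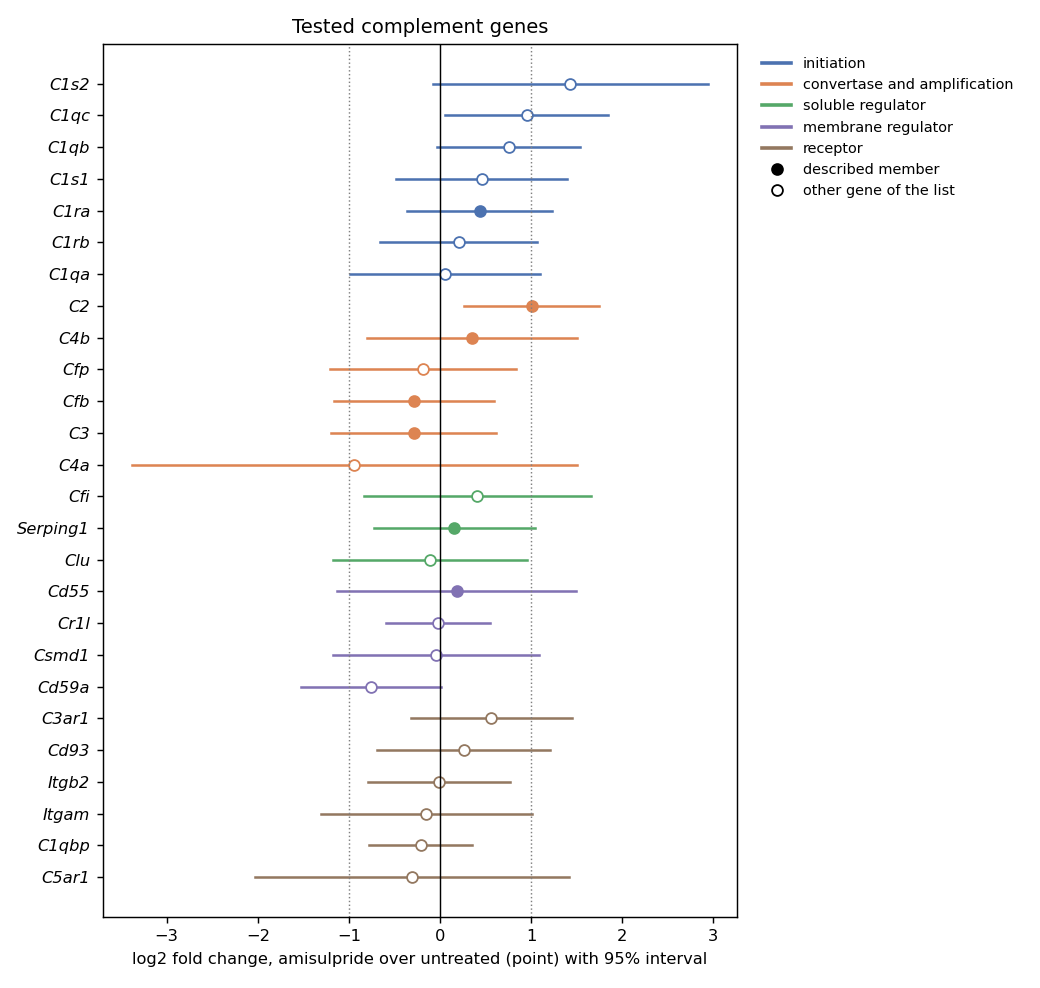
Log2 fold change (amisulpride over untreated, point) with its 95% interval (line) for the 26 tested complement genes, coloured by role, with filled points for the members, open points for other genes and dotted lines at 1 and -1. Of these, the intervals of C2 and C1qc lie wholly above 0, and none lies wholly below it.

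The soluble regulators Cfi, a protease that cleaves C3b, and Clu, which binds terminal complexes, had log2 fold changes of 0.41 and -0.11, neither past the thresholds.

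Among the membrane regulators, Cd59a, whose protein blocks the membrane attack complex, had 349, 148 and 193 normalised counts in untreated and 140, 91 and 161 in treated libraries. It was lower in all 3 pairs, as were 17.8% of all genes, with a log2 fold change of -0.76 ± 0.35 (SE), an unadjusted p of 0.0527 and an adjusted p of 0.465 in limma. The groups overlapped at the untreated value of 148. The log2 fold change of Cr1l was -0.02 ± 0.26, with a 95% interval of -0.59 to 0.55, narrower than that of any member. None of the 7 terminal pathway genes was tested, 5 of them were at 0 in all libraries and the highest value among them was 5.

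C1s2, another C1s gene, had 23, 40 and 21 normalised counts in untreated libraries and 39, 304 and 34 in treated ones. The treated mean rested largely on replicate 2, which lay far above the others, and the log2 fold change of 1.43 ± 0.69 (SE) (adjusted p 0.489 in limma) was 0.43 without that library. C1s2 was higher in all 3 same-numbered pairs, by 0.74, 2.90 and 0.67 on the log2 scale, as were 16.9% of all genes. C1s2 was past the study thresholds in 5 of the 12 alternatives, among them the fit with the replicate block, where its adjusted p was 0.0841. Another of them was the fit without amisulpride replicate 3, where its log2 fold change was 1.99. In the same library C1s1 and C1ra were also at their highest, at 1280 and 1321, and the ratio of C1s2 to C1s1 was 0.238 there against 0.0504 to 0.0837 in the others.

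C1q, the recognition molecule of the classical pathway, is assembled from 3 chains that are known as macrophage products. C1qc had 95, 34 and 44 normalised counts in untreated and 127, 67 and 125 in treated libraries, a log2 fold change of 0.95 ± 0.41 (SE), and limma gave an unadjusted p of 0.0392 and an adjusted p of 0.426. It ran from 0.65 to 1.38 over the alternatives and was past the study thresholds in 3 of 12. C1qb had 44, 35 and 38 against 53, 50 and 109, a log2 fold change of 0.75 ± 0.36 and an adjusted p in limma of 0.479, and was at 0.40 without amisulpride replicate 3. C1qa had 159, 38 and 68 against 116, 74 and 54, a log2 fold change of 0.05 ± 0.47 and an adjusted p in limma of 0.977. C1qb and C1qc were higher in all 3 pairs and C1qa in 1 of 3, and the differences between them were not tested.

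Myeloid cells in the cultures are a known source of C1q, and in bulk libraries fewer cells of a type and less RNA per cell cannot be told apart. All 15 myeloid markers, of which Itgam and Itgb2 also stand on the complement list, were detected in spite of the CD45 depletion, with CD45 itself (Ptprc) at 38, 12 and 18 normalised counts in untreated and 23, 5 and 5 in treated libraries. Their summed level was 3027 to 5838 in untreated and 2804 to 5304 in treated libraries. Lyz2, at 1394 to 3287 normalised counts, was the largest part of this sum in every library. Of the 15, 11 had a lower and 4 a higher estimate, and Cd14, Spi1 and Csf1r fell past the study thresholds, beside 3.01% of all genes, with no adjusted p under 0.05 in limma. With the replicate block, the adjusted p in limma was 0.0120 for Cd14, 0.0260 for Spi1 and 0.220 for Csf1r. Csf1r had 114, 93 and 76 normalised counts in untreated and 41, 23 and 100 in treated libraries, with overlapping groups. Cd14, an endotoxin co-receptor, had 121, 69 and 76 in untreated and 47, 25 and 13 in treated libraries. Adgre1, a surface marker of mouse macrophages, had 39, 25 and 14 against 59, 43 and 32, higher in all 3 pairs with a log2 fold change of 0.83 ± 0.43 and an adjusted p in limma of 0.518. Cd68, a lysosomal macrophage protein, was also higher in all 3 pairs, with a log2 fold change of 0.31 ± 0.33, while those of Cd52 and Mrc1 were 0.45 and 0.13. The markers therefore had estimates on both sides of 0. The part of these cells in the C1q values was not tested.

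**Figure D5:**
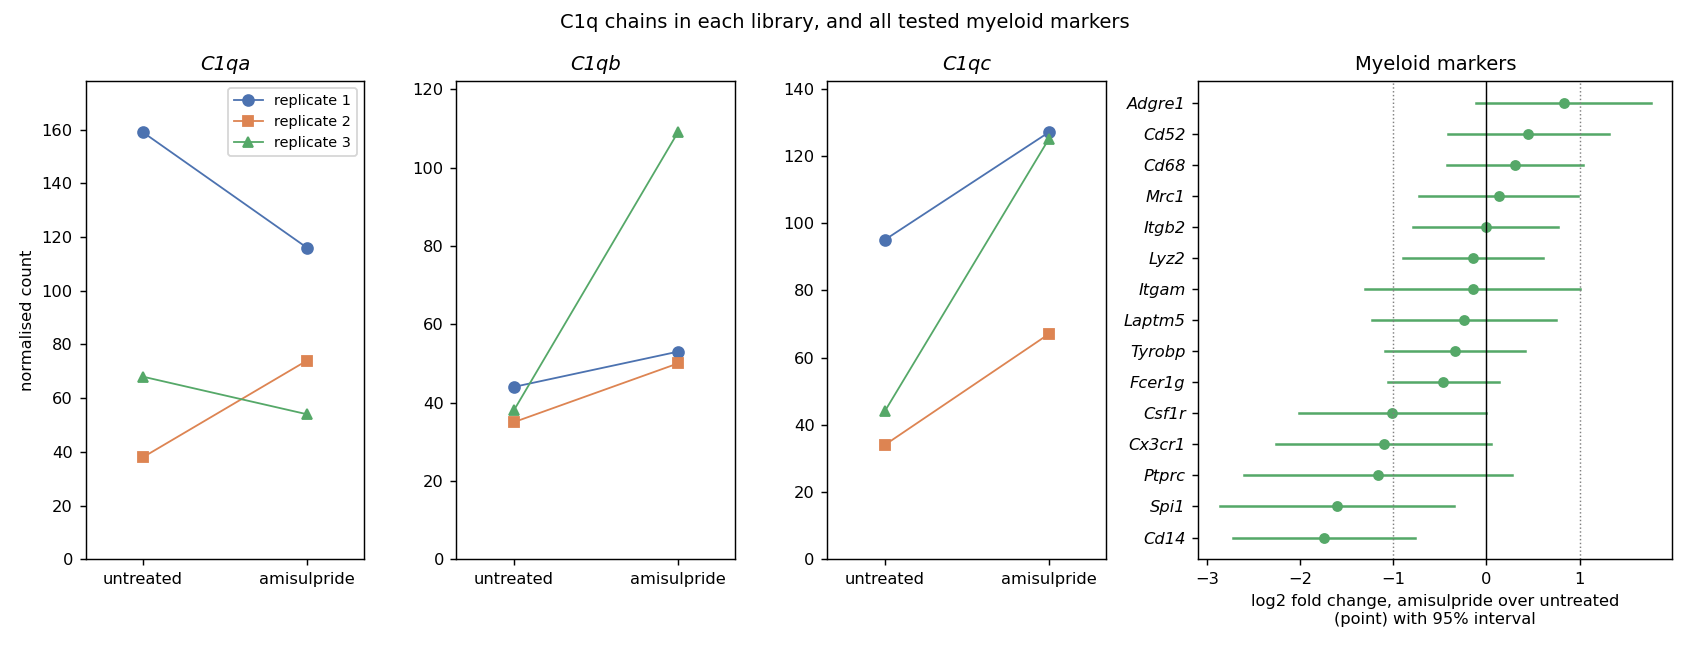
Left, normalised count (vertical axis, linear, from 0) of the 3 C1q chains in each library, with lines joining equal replicate numbers, and right, log2 fold change (amisulpride over untreated, point) with its 95% interval (line) of all 15 myeloid markers, with dotted lines at 1 and -1. All 3 lines slope upward for C1qb and C1qc but not for C1qa, and the markers run from -1.74 for Cd14 to 0.83 for Adgre1, with 3 intervals wholly below 0 and none wholly above it.

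The receptors for complement fragments did not pass the thresholds. The receptor for C3a, C3ar1, had 100, 40 and 33 normalised counts in untreated and 92, 72 and 66 in treated libraries, a log2 fold change of 0.56 ± 0.40 (SE), adjusted p 0.658 in limma. C5ar1 had 68, 7 and 11 against 34, 9 and 9, with a log2 fold change of -0.31 ± 0.79 and an interval of -2.03 to 1.42. C1qbp, a C1q-binding protein found mostly in mitochondria, had a log2 fold change of -0.21 ± 0.26 with an interval of -0.78 to 0.36. Changes beyond 2-fold lie outside the C1qbp interval, but not outside that of C5ar1.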

How the data were processed

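SFs were profiled by 3′ mRNA sequencing (QuantSeq, Ion Proton) in 3 untreated and 3 amisulpride libraries, grouped by the treatment label. The authors mapped reads to mm10 with TopHat2 and Bowtie2, counted reads per gene with GenomicRanges and normalised them through metaseqr, with DESeq as their test. The values that the authors deposited are a score, normalised counts rounded to whole numbers. Their columns of p-values and fold changes between the groups were not used, nor were 12 columns of the same libraries on other scales.

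Log2(normalised count + 1) was fitted across 12614 genes with limma 3.58.1 in R 4.3.3, with a variance trend. Tests were two-sided, with Benjamini-Hochberg adjustment over all genes tested. The script was tested on simulated data. The value of 1 read was estimated from the spacing of low values in 5 libraries, whereas that of untreated replicate 1 was not determined. Same-numbered libraries deviated from their group means together (correlations of 0.201 to 0.240 across genes, which are not replicates). The labels do not say that they share a mouse or a culture. The main fit was unpaired, so its SEs, intervals and p-values do not use the replicate numbers. A fit with the replicate number as a block is given as an alternative.

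The members and gene lists were chosen with earlier results of these data known. Named genes are the 8 members and, of the complement list, those past the study thresholds, those with a mean of at least 100 over the 6 libraries, the paralogs of members and genes overlapping them, with the 3 genes most like C3 and defining markers. The genes Elane, C1qa, C1qb, C1qc, C1s2, Cr1l, Cfi, Clu, C3ar1 and C5ar1 were chosen after their values were seen. A further gene of the list is not reported here and is left out of its counts. Only the 4 promoters in the RefSeq table were used. Alternatives covered the pseudocount, the filter, scaling, library weights, the replicate block and leaving out each library.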

Additional observations from a re-analysis of the deposited data

How the results depend on the processing

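The 12 alternatives gave 84 values for the 7 tested members, of which 66 kept direction and call, 6 lost the call and 12 changed sign. Members past the study thresholds numbered 1 and came to 0 with a pseudocount of 5, quantile normalisation, upper-quartile rescaling and weights per library, and to between 0 and 1 with a library left out. C2 then stood at 0.97, 0.999, 0.98 and 0.76 on the log2 scale. The wider complement list, with 1 gene past them, had 0 with a pseudocount of 5, quantile normalisation and upper-quartile rescaling, 2 with no filter, weights per library and the replicate block, and 1 to 2 without single libraries. Members with an adjusted p under 0.05 numbered 0 in every alternative. Weights per library turned C3 to 0.11 and Cfb to 0.052. Without single libraries C3 ranged from -0.76 to 0.10, C4b from -0.049 to 0.69, Cd55 from -0.34 to 0.80, Cfb from -0.73 to 0.0050 and Serping1 from -0.20 to 0.52. The replicate block left 1 member past the study thresholds and 0 with an adjusted p under 0.05, and changed no other call among the members, while over all genes it moved the number with an adjusted p under 0.05 from 36 to 263. No cause of these shifts was tested. At these depths C4b and C4a rest on few reads.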
